A study of Homo sapiens with 5 samples.

Results

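The mitochondrial ribosomal protein genes were examined in HLF cells, an established line derived from a hepatocellular carcinoma. Members were taken by symbol alone, as every gene named MRPL or MRPS with a number, or DAP3, and 79 genes met this rule. The same 79 were listed among the 11102 genes tabulated for USP28-Ctrl and USP28-KO cells and among the 12342 genes tabulated for the reconstituted cells. The rule uses no measured value, although it was chosen with earlier results of these data known.

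Mitochondria carry their own ribosome, which translates the few messages of the mitochondrial genome into core subunits of the respiratory chain and the ATP synthase. Its RNA is made inside the organelle, whereas its proteins are encoded in the nucleus, translated in the cytosol and imported. Some of these proteins descend from bacterial ribosomal proteins, and others were added in the mitochondrial lineage.

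The series lists 5 conditions with 1 sample each. USP28-Ctrl cells carried a control guide (sgCtrl) and USP28-KO cells a guide against the deubiquitinase USP28 (sgUsp28). The remaining cells were sgUsp28 cells transduced with a lentiviral pRRL vector, either the control vector (pRRL-Ctrl), with wildtype USP28 (pRRL-Usp28-WT, USP28-WT) or with a USP28 carrying a point mutation that disrupts dimerization (pRRL-Usp28-Mono, USP28-M). All cells were untreated, and the knockout background was shared by every reconstituted condition, so that USP28-WT and USP28-M came from an introduced vector and not from the endogenous locus. The knockout lines were picked as single clones, so that a clone and the knockout cannot be told apart in these samples. How many libraries stand behind each condition is not given in the sources used here.

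The measurement used was the average expression of each gene that the authors' edgeR fit gave, in log2 CPM (CPM, the reads of a gene scaled to a library of fixed size, on a log2 scale). One fit covered USP28-Ctrl and USP28-KO, and another covered the 3 reconstituted conditions, whose 2 deposited tables held identical averages for all genes. An average over conditions cannot show a difference between them. Changes of these genes after USP28 deletion, or with USP28-WT or USP28-M, were therefore not analysed here. From the spacing of the lowest values, the fit of USP28-Ctrl and USP28-KO rested on about 7700000 reads over all its libraries and that of the reconstituted cells on about 30500000. These totals gave each level a 95% Poisson interval, printed in brackets below. It covers counting error only, and the spread between libraries is unknown.

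The labels were examined as far as averages allow. USP28 itself had a level of 5.15 log2 CPM in the fit of USP28-Ctrl and USP28-KO, and of 9.79 in the fit in which the reconstituted cells with introduced USP28 took part. KRT8 and KRT18, keratins of simple epithelia and hepatocytes, stood at 11.18 and 10.66, and VIM, the mesenchymal intermediate filament, at 11.71, in the former fit. The other epithelial markers, the adhesion proteins EPCAM and CDH1, were listed in neither fit. MYC, whose turnover USP28 is known to control, had 6.63 in the former and 7.15 in the latter fit. Of 10 hepatocyte markers only FGB, a fibrinogen chain, was listed in the former, at 6.003, and FGB at 3.20 and SERPINA1 at 1.88 were listed in the latter. ALB, APOA1, TTR, AFP and HNF4A were listed in neither. Of 5 markers of blood and endothelial cells, CD14 alone was listed, at 0.93 in the reconstituted cells.

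Most of the mitochondrial ribosomal protein genes lay above the middle of all genes in level. In USP28-Ctrl and USP28-KO cells their median was 5.84 log2 CPM, against 5.33 over all genes, which is 1.43-fold. The lowest member stood at 4.18 and the highest at 7.62, a 10.8-fold span, whereas all genes ran from 1.70 to 13.39. In the reconstituted cells the median was 5.67 against 4.90 over all genes (1.70-fold), with members between 3.23 and 7.67, a 21.7-fold span. There 12342 genes were listed and reached down to 0.40, against 11102 genes in USP28-Ctrl and USP28-KO. The folds over all genes thus have unlike references and do not show that members stood higher in the reconstituted cells. Of the 79 members, 57 lay above the median of all genes in the former fit and 58 in the latter. Together they accounted for 5228 CPM in USP28-Ctrl and USP28-KO and for 4850 CPM in the reconstituted cells.

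**Figure D1:**
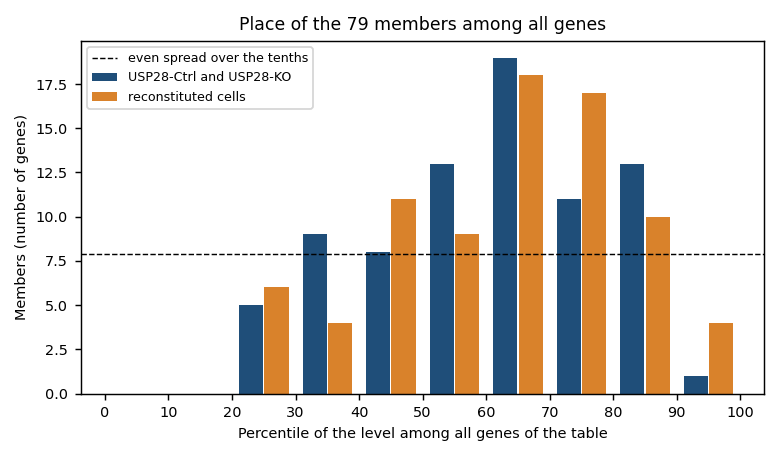
Place of the 79 members among all genes of each table, in steps of 10 percentiles of the ranking by level (x axis, percentile, y axis, number of members), with USP28-Ctrl and USP28-KO in blue and the reconstituted cells in orange. The dashed line marks an even spread, and above percentile 90 lie 1 member in the former and 4 in the latter.

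On the scale without length, MRPS16 of the small subunit, a homologue of a bacterial ribosomal protein, had the highest level. It stood at 7.62 [7.54, 7.69] in USP28-Ctrl and USP28-KO and at 7.67 [7.64, 7.71] in the reconstituted cells. DAP3, a GTP-binding protein of the small subunit that is also known for a role in apoptosis, had 7.30 [7.22, 7.38] and 7.40 [7.36, 7.44]. MRPS34, a protein particular to mitochondrial ribosomes, had 7.29 [7.21, 7.37] and 7.35 [7.31, 7.39]. The intervals of DAP3 and MRPS34 overlapped in each fit, so their order could not be told. MRPS18C stood lowest in this subunit, at 4.18 [3.93, 4.42] and 3.28 [3.11, 3.45].

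MRPS18C belongs to a group of paralogues, the 3 homologues of the bacterial protein S18. MRPS18B stood at 6.94 [6.84, 7.03] in USP28-Ctrl and USP28-KO and at 7.09 [7.04, 7.13] in the reconstituted cells. MRPS18A, which despite its symbol sits in the large subunit, had 5.35 [5.18, 5.51] and 5.67 [5.60, 5.74]. The paralogues thus kept the order MRPS18B, MRPS18A, MRPS18C in both fits with intervals that did not overlap. Per kilobase of transcript the order was the same, with 6.32, 5.66 and 4.76 log2 CPM per kb in the former fit.

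In the large subunit, MRPL12, part of the stalk that recruits translation factors and also reported to bind the mitochondrial RNA polymerase, had 7.28 [7.20, 7.37] in USP28-Ctrl and USP28-KO and 7.28 [7.24, 7.33] in the reconstituted cells. MRPL11, which sits at the base of the stalk, had 6.29 and 6.54, and MRPL10, which anchors MRPL12, had 4.79 and 5.27. Per length the order of these stalk proteins was the same, from MRPL12 at 7.24 to MRPL10 at 4.005 log2 CPM per kb in the former fit. Another 5 members were taken as proteins at the rim of the tunnel through which the new chain leaves. These are MRPL22, MRPL23, MRPL24, MRPL45 and MRPL47, and they lay between 5.56 and 6.49 in the former fit. The choice may leave out other proteins at the rim, so this range holds for these 5 only. At the lower end in USP28-Ctrl and USP28-KO stood MRPL13 with 4.19 [3.94, 4.43] and MRPS30, another protein of the large subunit, with 4.27 [4.03, 4.50]. In the reconstituted cells they had 3.49 and 4.07, and MRPL1 at 3.23 and MRPL50 at 3.45 lay below both.

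**Figure D2:**
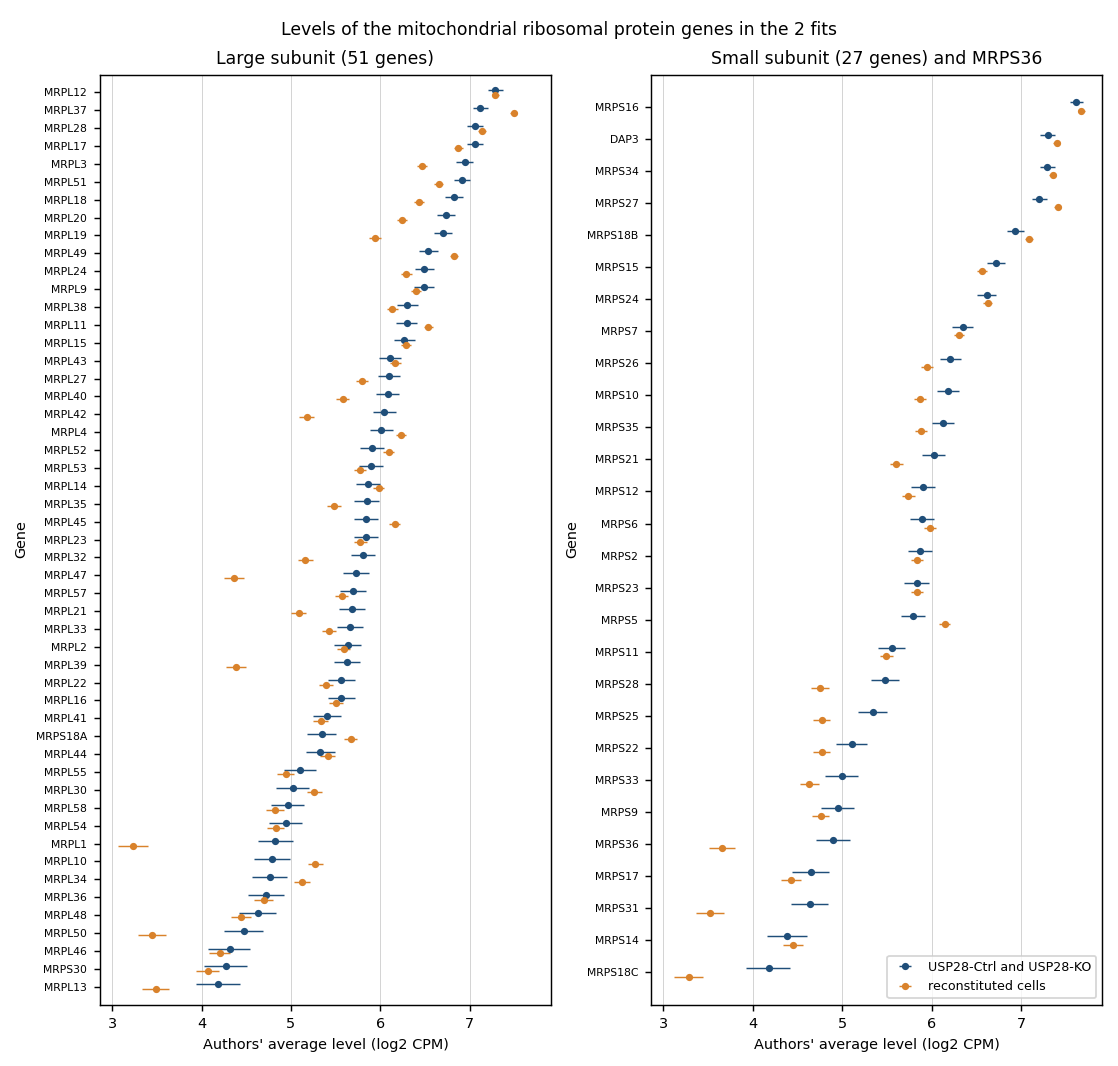
Level of each member (x axis, log2 CPM as averaged by the authors) in the fit of USP28-Ctrl and USP28-KO (blue) and in that of the reconstituted cells (orange), with bars for the 95% Poisson interval of counting error. The left panel holds 51 genes of the large subunit and the right panel 27 of the small subunit and MRPS36, each in the order of the blue points. MRPL1, MRPL47, MRPL39, MRPS31, MRPS36 and MRPL50 have the orange point farthest to the left of the blue one.

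Members next to each other in this order were mostly not separable. Of 78 neighbouring pairs, 77 had overlapping intervals in USP28-Ctrl and USP28-KO and 72 in the reconstituted cells. The intervals were between 0.15 and 0.49 log2 wide in the former fit and between 0.072 and 0.34 in the latter.

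Levels of different genes are comparable only per length, and the members are short. Their transcripts had a median of 1032 bases (GENCODE release 29, median over the protein-coding transcripts of a gene) against 1783 over all listed genes, and their coding sequences a median of 606 against 1437. Per length the members stood higher among all genes than on the scale without length. Their median was 5.75 log2 CPM per kb in USP28-Ctrl and USP28-KO against 4.47 over all genes with a length (2.42-fold), and 5.56 against 4.07 in the reconstituted cells (2.80-fold). The members also spread more widely on this scale, over 36.0-fold in the former fit and 70.7-fold in the latter. On this scale 67 members lay above the median of all genes in the former fit and 69 in the latter. Here too the sets of all genes differ between the fits, so the folds and counts are not comparable from fit to fit.

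MRPL51, MRPL49 and MRPL28 of the large subunit and DAP3, MRPS34 and MRPL12 had the highest levels per length in both fits. In USP28-Ctrl and USP28-KO these were 7.91, 7.49, 7.38, 7.75, 7.25 and 7.24 log2 CPM per kb. The lowest values in that fit belonged to MRPL50 (2.74), MRPS14 (3.31), MRPS30 (3.53), MRPL22 (3.93), MRPL10 (4.005) and MRPS31 (4.09). In the reconstituted cells MRPL1 (2.98) and MRPS36 (3.39) took the places of MRPL22 and MRPL10 among the lowest 6. These places depended on the transcript length used. With the longest transcript or the coding length as well, 1 gene, MRPL12, stayed among the highest 6 in the former fit, and MRPL12 and MRPS34 did in the latter. Of the lowest 6, none stayed under all lengths in the former fit, and MRPL1 did in the latter. DAP3, with 17 annotated protein-coding transcripts of 384 to 2089 bases, ranked 2 by the median length, 13 by the longest transcript and 25 by the coding length.

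The subunits could not be ranked. By the place of each protein in the ribosome, 51 members belong to the large and 27 to the small subunit, and MRPS36, named as a ribosomal protein, is now known as a subunit of a dehydrogenase complex. The median level per length of the large subunit exceeded that of the small by 0.19 log2 in USP28-Ctrl and USP28-KO and by 0.25 in the reconstituted cells. With coding length in place of transcript length the difference was -0.18 and -0.31, so its sign depended on this choice. Members with a homologue in bacterial ribosomes (47 genes) had a median of 5.86 log2 CPM per kb in the former fit and the other 31 ribosomal members 5.48, with ranges of 3.31 to 7.38 and 2.74 to 7.91.

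Other genes of mitochondrial translation had lower medians per length. In USP28-Ctrl and USP28-KO, 22 listed assembly and rRNA modification factors of the mitochondrial ribosome had a median of 4.46 log2 CPM per kb. Among them ERAL1, a GTPase that binds the small rRNA, was highest at 6.77 and the helicase DDX28 lowest at 3.05. The 14 translation factors had a median of 4.45, from MTFMT, which formylates the initiator tRNA, at 2.60 to the elongation factor TUFM at 7.53. For 19 mitochondrial aminoacyl-tRNA synthetases and related enzymes the median was 4.27, between MARS2 at 2.82 and IARS2 at 5.75. Of the 5 listed genes for transcription of the mitochondrial genome, TFAM had 6.14, POLRMT 5.86 and TEFM 3.01. Of the ribosomal proteins with unrelated symbols, AURKAIP1 at 8.06 lay above every member, and the others within the members' range, with PTCD3 at 6.51, GADD45GIP1 at 6.02 and CHCHD1 at 5.66. Genes with symbols of cytosolic ribosomal proteins (81 by pattern, which also took in RPL7L1) had a median of 9.61 on this scale.

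**Figure D3:**
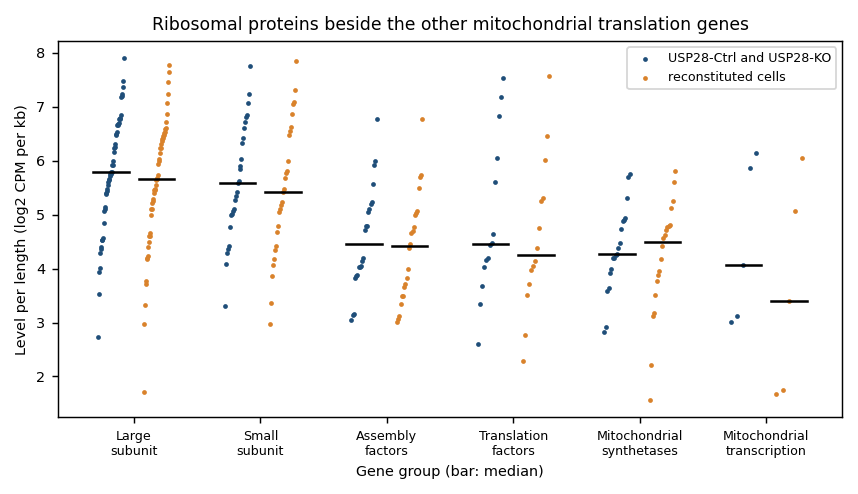
Level per length (y axis, log2 CPM per kb of transcript) of the large and small subunit members and of 4 other groups of mitochondrial translation genes (x axis). Each point is a gene, the black bar is the median, blue is the fit of USP28-Ctrl and USP28-KO and orange that of the reconstituted cells. Both subunits have medians above 5.4 and the other groups medians below 4.5, with ranges that overlap.

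The members' levels were also set side by side between the fits. The tables were normalized separately and come from different libraries, so no test was made, and differences are given relative to the median difference of the 10976 genes listed in both (-0.12 log2, reconstituted cells minus USP28-Ctrl and USP28-KO). On this scale the median of the members was -0.023, with 37 above and 42 below the median of all genes. Across the 79 members the levels in the fits had a Pearson r of 0.921 and a Spearman's rho of 0.932, which describes genes and not replicates. For 41 members the intervals of counting error did not overlap after this adjustment. These were 51.9% of the members, against 60.4% of the 10976 genes. Of the 41, 21 were lower in the reconstituted cells, as were 29.7% of all genes, and 20 were higher, as were 30.7%. The share of members with separate intervals was thus below that of all genes.

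The low side reached farther than the high side. Relative to the median of all genes, 12 members (15.2%) were lower by at least 0.5 log2 in the reconstituted cells, and 1, MRPL10, was higher by this much, at 0.60. Among the 10976 genes 19.6% were lower and 14% higher by at least 0.5, so neither share of members exceeded that of all genes. MRPL1, a protein of the stalk at the exit site, had the lowest difference, at -1.47, with 4.83 [4.63, 5.02] in USP28-Ctrl and USP28-KO and 3.23 [3.06, 3.40] in the reconstituted cells. MRPL47, at the tunnel exit, followed with -1.24 (5.73 and 4.36). MRPS36 had -1.13, MRPL39 -1.12, MRPS31 -0.996 and MRPL50 -0.90. On the high side stood MRPL37 with 0.49, MRPL34 and MRPS5 with 0.48 each and MRPS18A with 0.45. In the order of the members by level, MRPL47, MRPL42, MRPL39 and MRPL19 moved down most, and MRPS5, MRPL10, MRPL45 and MRPS18A moved up most.

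GC content of the transcript moved with these differences. The 10 members with the lowest difference had GC contents between 35.0% and 46.6% with a median of 39.6%, and the 10 with the highest had a median of 54.2%, between 39.4% and 64.7%. Over the 79 members the difference and the GC content had a Pearson r of 0.532 and a Spearman's rho of 0.485. Over the 10684 genes with a known GC content these were 0.428 and 0.479. All points share the same libraries. In transcripts with a GC content under 42%, the 13 members had a median of -0.75 and 2019 other genes a median of -0.54. From 42% to 50%, the median was -0.11 for 24 members and -0.046 for other genes, and from 50% to 58% it was 0.063 for 25 members and 0.22 for other genes. At 58% and above it was 0.091 for 17 members and 0.18 for 2250 other genes, so the medians of other genes did not go on rising there. The part of GC content in the difference of any member was not tested.

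**Figure D4:**
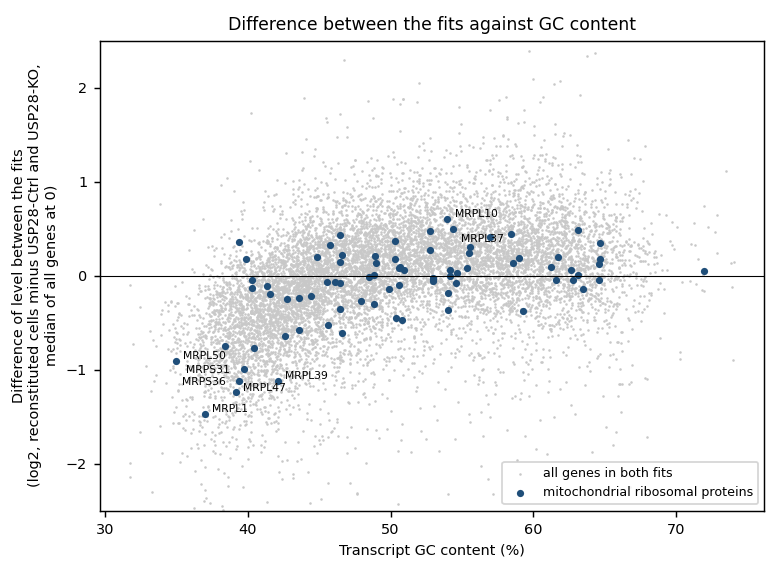
Difference of level between the fits (y axis, log2, reconstituted cells minus USP28-Ctrl and USP28-KO, with the median of all genes at 0) against the GC content of the transcript (x axis, %). Blue points are the 79 members and grey points the genes listed in both fits, 31 of which lie beyond the plotted range of 2.5. MRPL1, MRPL47, MRPS31, MRPS36, MRPL39 and MRPL50 lie lowest and have GC contents near or below 42%, where the grey points also lie below 0.

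The members' promoters were compared with those of other genes in their sequence, which played no part in the rule. RefSeq promoters (GRCh38.p14, from 250 bases before to 50 bases after the transcription start) matched 71 of the 79 members by gene ID. The 8 without an entry were MRPL2, MRPL10, MRPL13, MRPL15, MRPL21, MRPL23, MRPL35 and MRPS28. The letters ATGGCGGC, the core of the motif bound by the factor YY1, were found on either strand in 19 of the 71 promoters (26.8%), against 7.12% of 8826 promoters of other listed genes and 3.21% of all 27305 promoters. Of the 20 matches, 17 were on the strand of the gene and after the start, at positions 10 to 39 with a median of 18 (the first transcribed base is 1). At 16 of these 17 the letters ATG were an annotated start codon in GENCODE release 29, so that the motif overlaps the first codons of the protein. Within 50 bases of the start on either side, 18 of the 19 members had a match, as did 469 of the 628 other listed genes with these letters. How often other genes hold the letters at a start codon was not counted, so this placement cannot be called particular to the members. The match is a description of sequence and not evidence of binding.

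The other 3 matches lay on the opposite strand before the start, in MRPL36 at -38, MRPL19 at -54 and MRPL47 at -185, and the match after the start that is not at an annotated start codon was in MRPS15. Windows of 30 bases around the match are printed for 8 of the members with a match at a start codon, to show the letters beside it, each on the strand of the gene with the match in capitals. In these 8 the match began between position 12 in MRPL46 and 39 in MRPL22. MRPS14 lies on the minus strand at chr1:175023390-175023419, MRPL1 on the plus strand at chr4:77862838-77862867 and MRPS30 on the plus strand at chr5:44808952-44808981. MRPL22 lies on the plus strand at chr5:154941093-154941122, MRPS18B on the plus strand at chr6:30617855-30617884 and MRPS18A on the minus strand at chr6:43687761-43687790. MRPL50 lies on the minus strand at chr9:101398574-101398603 and MRPL46 on the minus strand at chr15:88467359-88467388.
MRPS14: tagcggacaacATGGCGGCcttcatgctgg
MRPL1: gagtgcccaacATGGCGGCggccgtaaggt
MRPS30: cgcgggcaaagATGGCGGCggccaggtgtt
MRPL22: gtagcgggagggcgaaagATGGCGGCggca
MRPS18B: cgtacgtcaagATGGCGGCgtctgtattaa
MRPS18A: ggtttttgaagATGGCGGCcctcaaggctc
MRPL50: tctcatcgaagATGGCGGCgcgatctgtgt
MRPL46: gagaacgaaagATGGCGGCgcccgtaaggc

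The letters CCGGAAG, the core recognised by ETS factors such as GABPA, a known regulator of nuclear genes for mitochondria, were present in 29 of the 71 promoters (40.8%), against 21.4% of other listed genes and 10.7% of all promoters. MRPL38, MRPL47, MRPL58, MRPS10 and MRPS18A held both this and the YY1-type letters, and none of their matches overlapped. The E-box CACGTG, to which MYC and its partners bind, was found in 7 promoters (9.86%), near the 10.7% of other listed genes. Within 50 bases of the start it was found in 0 of the 71 promoters of members and in 400 of the 8826 of other listed genes. The nearest match in a member was in MRPL36 at -56, just outside this limit. With 7 promoters, no difference in placement can be told. For GCATGCGC, part of the site of the regulator NRF1, the share was 8.45% against 6.38%. The remaining letters searched had lower shares in members than in other listed genes. For GGGCGG these were 62.0% against 71.4%, for CCAAT 28.2% against 37.7% and for TATAAA 4.23% against 5.16%. Median levels of members with and without these letters were taken on the scale without length, so differences in transcript length enter them. Members with the YY1-type letters had a median level of 5.56 log2 CPM in USP28-Ctrl and USP28-KO and those without 5.90. For the ETS-type letters these were 5.90 and 5.85. In the reconstituted cells the medians were 5.39 and 5.81 for the YY1-type letters and 5.74 and 5.86 for the ETS-type letters, so that the order for the latter turned between the fits.

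Many members share their start region with another gene. For 17 of the 79 (21.5%) a protein-coding gene on the opposite strand started within 1000 bases upstream, against 10.3% of 10429 protein-coding genes of the table. MRPL46 and MRPS11 face each other with starts 34 bases apart, and their levels in USP28-Ctrl and USP28-KO were 4.31 [4.08, 4.54] and 5.55 [5.40, 5.70]. Per length they were close, at 4.30 and 4.41 log2 CPM per kb, and with the longest transcript the order turned, to 4.29 and 3.69. MRPL47 is paired with NDUFB5 and MRPL36 with NDUFS6, both of which encode subunits of respiratory complex I. In GENCODE release 29, 35 members had 77 named pseudogenes, with 8 for MRPS21. The share over all genes was not set beside this, so whether it is high cannot be told. How the authors' counting treated reads shared with such pseudogenes is not given in the sources used here. Levels of these 35 members are uncertain to that extent.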

How the data were processed

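Total RNA of HLF cells of 5 conditions was sequenced, with 1 sample per condition in the series. The submitters' processing notes name bcl2fastq 2.20, STAR 2.5.4, edgeR 3.26.8 and hg19. Counting and the filter on low genes are not given in the sources used here. The 3 deposited tables hold the authors' own comparisons (log2 fold changes, F statistics, p-values and their adjustment), none of which was used, and the authors' average log2 CPM per gene over the libraries of a fit, the only measurement used here. One table has a header shifted by 1 column, and the columns were read by content. There were 0 columns of per-sample values without a matched sample.

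The members and lists were chosen with earlier results of these data known. Named genes are the 6 highest and 6 lowest per length in each fit, the 4 with the largest move in rank in each direction, DAP3, the stalk proteins, the S18 paralogues, MRPS30, MRPS36, USP28, MYC, members listed in 1 fit only (there were none), and the highest and lowest of each list of other genes. MRPS16, MRPL13, MRPL37, MRPL34, PTCD3, GADD45GIP1, POLRMT, members with the lowest difference between the fits, the tunnel proteins and genes named for their promoters were chosen after their values were seen. Depth came from the spacing of the 600 lowest CPM values, of which 98.8% in the fit of USP28-Ctrl and USP28-KO and 78.2% in the other lay within 0.1 reads of a whole step. The estimate was tested on simulated reads of a single known total only. Averages over several libraries were not simulated, so the estimate was not tested in the setting of these fits. Lengths and GC content came from GENCODE release 29 by gene ID and covered 97.1% and 95.9% of genes. No test was made, because no condition has its own value in the column used. Scripts ran under Python 3.11.15 with pandas 2.3.3, numpy 2.4.6 and scipy 1.17.1, and figures were drawn with matplotlib 3.10.9.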

Additional observations from a re-analysis of the deposited data

How the results depend on the processing

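In both fits the median level of the members stayed within the counting interval of the gene at the median. It did so when the CPM of the lowest gene of the fit was subtracted from each level. It also did so when 4 listed ribosomal proteins with other symbols were added, and without MRPS36. The subtraction stood in for edgeR's prior, whose own size is not known here. The gene at the median was MRPL45 in USP28-Ctrl and USP28-KO and MRPS18A in the reconstituted cells. This interval is that of a single gene and not of a median over 79. With the CPM of the lowest gene subtracted, the median was 5.76 in USP28-Ctrl and USP28-KO and 5.63 in the reconstituted cells. Taking only members of both fits, or only those with a level of at least 3 log2 CPM, left the same 79 genes and so says nothing about stability. The number of members above the median of all genes was 57 in USP28-Ctrl and USP28-KO and 58 in the reconstituted cells. Taken per length it rose to 67 and 69. The limit of 1.5 times set for this count could not be passed by any rise among 79 members, so it says nothing about stability. The difference of the large minus the small subunit per length changed sign with coding length, to -0.18 in USP28-Ctrl and USP28-KO and -0.31 in the reconstituted cells, and moved to 0.12 in the reconstituted cells with the longest transcript. The cause was not tested. No paired analysis was possible because the column used holds no value of a single sample. Leaving out a library was not possible for the same reason. Depth is known only as a total per fit, and the spread between libraries cannot be given.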

Other observations

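Transcripts of the mitochondrial genome, which the mitochondrial ribosome translates or is built from, were listed in both fits with 13 messages and 2 ribosomal RNAs. Per length their messages had a median of 11.59 log2 CPM per kb in USP28-Ctrl and USP28-KO and of 11.19 in the reconstituted cells. COX1, a core subunit of cytochrome oxidase, was highest in the former at 12.76 and ND5, of complex I, lowest at 10.31. The mitochondrial rRNAs RNR2 and RNR1 had levels of 13.04 and 9.92 log2 CPM in the former fit and of 12.20 and 9.30 in the latter.

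Of the 5 listed genes for transcription of the mitochondrial genome, 4 were lower in the reconstituted cells relative to the median of all genes. The values were -1.33 for MTERF1, -1.13 for TEFM, -0.96 for TFAM and -0.55 for TFB2M, and POLRMT had 0.30. The transcripts of MTERF1, TEFM, TFAM and TFB2M had GC contents of 40.2%, 41.9%, 38.4% and 41.9% and that of POLRMT 65.7%, and 2019 other genes with a GC content under 42% had a median of -0.54. Among all 10976 genes 19.6% were lower by at least 0.5. Of 22 assembly factors 10 were lower and 12 higher with a median of 0.053, of 19 synthetases 7 were lower and 12 higher with a median of 0.025, and of 14 translation factors 9 were lower and 5 higher with a median of -0.14. These differences lie between separately normalized fits and were not tested.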
